A study of Homo sapiens with 8 samples.

Results

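The comparison described here is the addition of compound C to HT1080 cells, a human fibrosarcoma line, that were held under stress by 2-deoxyglucose (2DG), and it rests on 2 of the 8 arrays of the series. One array held cells given 10 mM 2DG alone and the other held cells given 10 mM 2DG with 10 µM compound C, both for 18 h. Each value below is the log2 level in 2DG with compound C minus the log2 level in 2DG, so that 1 stands for 2-fold. The comparison was read over the probe sets whose level reached log2 6 on at least 1 of the 8 arrays, which were 15503 of the 54675 on the array and named 8429 genes. At this limit the last probe set inside reached 6.00012 and differed by −0.08, and the first outside reached 5.99995 and differed by −0.10. The other arrays were 1 each of cells in normal growth medium without a compound (control), with compound C at 10 µM, versipelostatin at 10 µM or phenformin at 100 µM, and of cells in 10 mM 2DG with versipelostatin or phenformin at those doses, all for 18 h. With 1 array a condition, there is no replicate check, no error or test is attached to any difference, and the number of arrays limits the precision.

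2DG enters cells as glucose does, cannot be used in glycolysis, and also disturbs the assembly of N-linked sugar chains, so that misfolded proteins collect in the endoplasmic reticulum (ER). The unfolded protein response (UPR) answers this through the membrane sensors PERK, ATF6 and IRE1, which raise chaperones, the degradation of ER proteins and, through the transcription factor ATF4, the making and uptake of amino acids. Compound C, also called dorsomorphin, is an ATP-competitive inhibitor of AMP-activated protein kinase (AMPK), the sensor of cellular energy, and of the type I receptors for bone morphogenetic proteins (BMP).

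The levels are RMA values, in which the arrays were normalized against each other, and levels are compared only within a probe set. As background stood the array median without control probe sets, 3.13 in 2DG and 3.24 in 2DG with compound C. Where a level lay under it, a difference written as a limit (at least, or lower) was computed with that median. All other differences, and all counts, medians, ranks and correlations, used the levels as they stand. The poly-A transcripts that are meant to be added to RNA before labelling read higher with compound C in 2DG by 1.04 between the array medians, and by 0.40 to 1.16 with a median of 0.80 over the 24 probe sets, while the hybridization controls read higher by 0.51. Their part in the results was not tested. Scaling on the poly-A controls lowers every difference by 1.04 and the median of all genes from −0.23 to −1.27, and a positive difference smaller than 1.04 then turns negative. With the 0.80 of the paired probe sets, a scaling chosen after the data were seen, the median of all genes becomes −1.03 and only positive differences under 0.80 turn. Of 12 markers of mesenchymal cells and of this line, 8 were at 6 or more on all 8 arrays, VIM among them at 13.5 in 2DG and 13.4 with compound C, whereas S100A4 and TAGLN stayed under 6 on all. None of 6 epithelial, 3 haematopoietic and 3 endothelial markers reached 6 on any array. The 3′ probe set of ACTB exceeded its 5′ probe set by 0.99 in 2DG with compound C, inside the range of 0.87 to 1.08 over all arrays.

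Under compound C far more genes differed by 2-fold in 2DG than in normal growth, and most of those in 2DG were lower. In 2DG, 1709 probe sets were at least 2-fold higher (11.0% of those read) and 3561 were at least 2-fold lower (23.0%). Counted as genes, each by its brightest probe set, 702 were higher (8.33%) and 2141 were lower (25.4%). Against control in normal growth, compound C left 327 genes at least 2-fold higher (3.88%) and 228 lower (2.70%). Differences of 8-fold or more were seen for 57 genes upward and 232 downward in 2DG, and for 7 and 0 in normal growth. Higher genes made up 24.7% of the genes called in 2DG, or 36.3% when each array was centred on its median, 8.32% after scaling on the hybridization controls and 2.91% after scaling on the poly-A controls.

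As fewer genes differed by 2-fold under compound C in normal growth, most of those that did so in 2DG could not be the same genes. The pair of comparisons shares no array, and the difference between them was not tested, here or below. Across the 8429 genes their differences had a Pearson r of 0.045 and a Spearman rho of 0.0012, given as a description, since genes are not independent replicates. Of the 702 genes higher in 2DG, 66 were also higher in normal growth (9.40%, beside 3.88% of all genes), and 30 were lower there. The 66 are 20.2% of the genes higher in normal growth, beside the 8.33% of all genes that were higher in 2DG. The 30 are 13.2% of the genes lower in normal growth, beside the same 8.33%. Of the 2141 genes lower in 2DG, 64 were also lower in normal growth (2.99%, near the 2.70% of all genes), and 85 were higher there. The 64 are 28.1% of the genes lower in normal growth, near the 25.4% of all genes that were lower in 2DG. Those 85 are 26.0% of the genes that compound C left higher in normal growth, beside the 25.4% of all genes that were lower in 2DG.

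**Figure D1:**
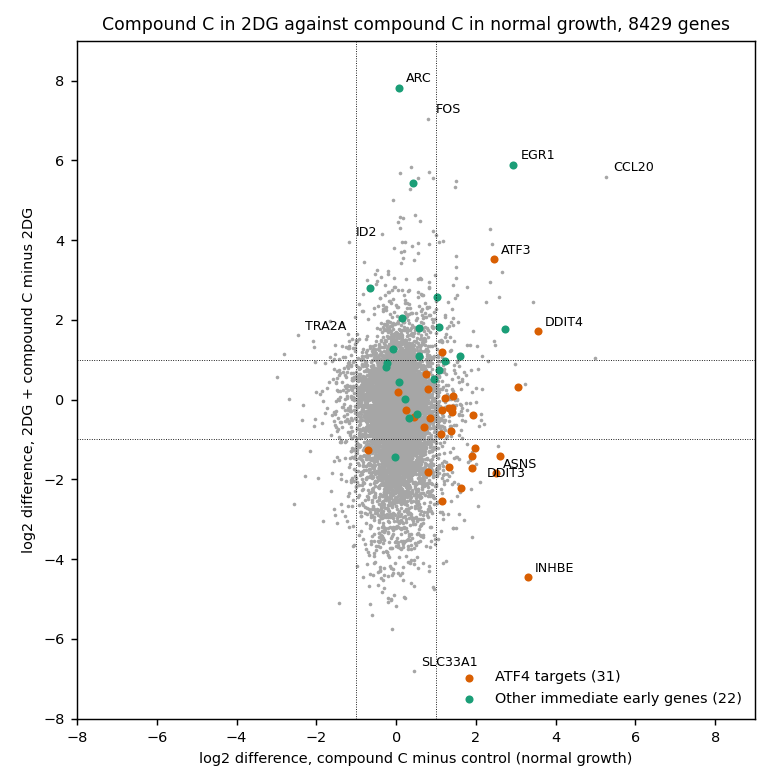
Log2 difference made by compound C in normal growth (x axis) and in 2DG (y axis) for each of 8429 genes (points), with dotted lines at 2-fold and 2 gene lists in colour. The cloud is stretched along the y axis. CCL20, EGR1 and ATF3 lie high in both, ARC and FOS only along the y axis, and INHBE and ASNS lie right of 0 and below it.

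The array of 2DG with compound C often held the extreme of the 8. Of the 702 higher genes, 556 (79.2%) were above their levels on all 7 other arrays, and of the 2141 lower genes, 1647 (76.9%) were below all 7. Since these genes were called on this same array, high shares are partly set by that choice. Over all 8429 genes, this array held the highest level for 1582 and the lowest for 2629. From a level of 6 or more in 2DG, 68 genes went to background with compound C, and 23 went from background to 6 or more, of which 12 were at background on all 7 other arrays. Those 12 passed the limit of 6 only through the array of 2DG with compound C. In normal growth, no gene crossed that span in either direction between control and compound C.

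Of 25 measured ER chaperones and folding enzymes, 11 were lower by 2-fold or more with compound C in 2DG and 0 were higher. The 11 are 44%, beside 25.4% of all genes. The median of the list was −0.87, beside −0.23 over all genes. Against 2DG alone, it was −1.21 with versipelostatin and −0.69 with phenformin in 2DG. A lower median of this list was thus not particular to compound C. In normal growth the same list had 1 gene higher and 1 lower, with a median of −0.13, where 3.88% and 2.70% of all genes were higher and lower. PDIA4, a protein disulfide isomerase, read 11.01 in 2DG and 8.95 with compound C, where the control array read 9.06, a difference of −2.06. HYOU1, an HSP70 relative in the ER, read 9.64 and 8.04, beside 7.53 in control. DNAJB9, a co-chaperone that feeds clients to GRP78, went from 8.43 to 6.64, while it read 8.60 with versipelostatin and 9.20 with phenformin in 2DG. With compound C it thus lay near its control level of 6.45, whereas under the other compounds in 2DG it lay at or above the level in 2DG alone. CRELD2, an ER-resident disulfide isomerase, read 10.23 and 8.82, a difference of −1.41. Unlike DNAJB9, the genes PDIA4, HYOU1 and CRELD2 were also lower than in 2DG alone with the other compounds in 2DG. They read 9.41, 7.86 and 8.23 with versipelostatin, and 9.49, 8.28 and 8.70 with phenformin.

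HSPA5, which encodes the chaperone GRP78, did not follow its list. It read 12.89 in 2DG and 13.42 with compound C, a difference of 0.52 that turns to −0.51 under poly-A scaling, and its dimmer probe set differed by −0.09. The control array read 11.19 and compound C in normal growth 10.58, so that HSPA5 stood above control in 2DG with compound C and below it with compound C alone. HSP90B1, which encodes GRP94, went from 12.33 to 11.08, a difference of −1.25, with −0.42 on its other probe set. Its level in 2DG with compound C stayed above the 10.39 of control.

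The promoters of these genes are shown because the ER stress response element (ERSE), the sequence through which ATF6 and XBP1 act, stands in them. It was searched as CCAAT, 9 bases and CCACG on both strands of the 300 bases from 250 before to 50 after each RefSeq start in GRCh38.p14. Among 27305 promoters it was found in 22 (0.0806%), and among the 22 chaperone and folding genes with a promoter in that table in 5, namely HSPA5, HSP90B1, CRELD2, CALR and CANX. These 5 had differences of 0.52, −1.25, −1.41, −0.26 and −1.08 with compound C in 2DG, so that genes with the same element differed in their response. In the sequences, given 5′ to 3′ on the strand of the gene, capitals mark each match on either strand, and HSP90B1 holds 2.
HSPA5 (chr9:125241294-125241593, minus strand): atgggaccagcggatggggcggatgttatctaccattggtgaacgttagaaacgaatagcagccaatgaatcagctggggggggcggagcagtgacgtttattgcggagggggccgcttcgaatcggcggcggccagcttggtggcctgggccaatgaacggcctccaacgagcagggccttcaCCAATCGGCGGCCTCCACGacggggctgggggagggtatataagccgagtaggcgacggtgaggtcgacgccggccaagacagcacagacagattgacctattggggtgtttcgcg
HSP90B1 (chr12:103930160-103930459, plus strand): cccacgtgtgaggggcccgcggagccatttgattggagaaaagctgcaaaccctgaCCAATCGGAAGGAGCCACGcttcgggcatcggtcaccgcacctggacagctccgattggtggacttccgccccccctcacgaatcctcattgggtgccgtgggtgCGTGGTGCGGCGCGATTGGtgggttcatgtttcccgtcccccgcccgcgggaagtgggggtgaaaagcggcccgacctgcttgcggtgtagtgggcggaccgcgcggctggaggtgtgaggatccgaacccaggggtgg
CRELD2 (chr22:49918384-49918683, plus strand): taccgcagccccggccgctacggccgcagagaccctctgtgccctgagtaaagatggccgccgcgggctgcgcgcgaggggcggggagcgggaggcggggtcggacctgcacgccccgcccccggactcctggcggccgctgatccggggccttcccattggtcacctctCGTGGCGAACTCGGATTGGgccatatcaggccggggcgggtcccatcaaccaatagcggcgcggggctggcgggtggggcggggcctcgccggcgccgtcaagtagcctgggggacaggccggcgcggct

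The sensors and transcription factors of the UPR differed in both directions, with 3 of 21 higher (14.3%, beside 8.33% of all genes), 6 lower (28.6%, near the 25.4% of all genes) and a median of −0.44. EIF2AK3, which encodes PERK, read 6.86 in 2DG and 8.43 with compound C, whereas it read 2.94 with versipelostatin and 4.83 with phenformin in 2DG. Compound C therefore gave the highest of its 8 levels and versipelostatin in 2DG the lowest. PPP1R15A, whose product GADD34 directs the dephosphorylation of eIF2-alpha, read 7.61 and 9.58, a difference of 1.97. PPP1R15B, the constitutive partner of that phosphatase, read 8.13 and 6.60, a difference of −1.53. Both went the same ways with versipelostatin and phenformin in 2DG, PPP1R15A at 9.75 and 10.14 and PPP1R15B at 6.43 and 6.54. MBTPS2, the site-2 protease that cuts ATF6, went from 8.31 to 5.09, the lowest of its 8 levels, and NFE2L1, an ER-anchored factor that controls proteasome genes, from 8.95 to 6.35.

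Of the factors that carry the signal onward, DDIT3 and XBP1 were lower by 2-fold. CEBPG, a C/EBP factor that pairs with ATF4, was higher, from 8.44 to 9.78, and is named after its values were seen. DDIT3, which encodes CHOP, read 8.83 in 2DG and 6.77 with compound C, whereas in normal growth compound C took it from 6.33 to 8.42. XBP1, the factor that IRE1 activates by splicing, read 7.94 and 6.44, a difference of −1.49, and the array does not tell its spliced form. ATF4 itself read 12.24 and 12.10, ATF6 7.31 and 6.92, and EIF4EBP1, a translation repressor that ATF4 induces, 10.66 and 10.28. ERN1, which encodes IRE1, differed by 0.30 on its brighter probe set and by −1.31 on the other, so that its probe sets disagree and the positive value turns negative under poly-A scaling.

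Downstream of the sensors, 8 of 27 genes of ER-associated degradation and protein translocation were lower (29.6%, near the 25.4% of all genes) and none higher. Their median was −0.64 against 0.15 in normal growth. EDEM3, a mannosidase that marks misfolded glycoproteins, read 8.00 and 5.97, and ERLEC1, a lectin of the same route, 9.56 and 7.84. In N-glycosylation and hexosamine synthesis, 6 of 25 were lower and none was higher, the lower ones including ALG2 and STT3B, a mannosyltransferase and a catalytic subunit of the oligosaccharide transfer, with −1.20 and −1.07. Among 27 genes of COPI and COPII transport, 6 were lower (22.2%) and 2 were higher, so that neither of these lists had a larger share of lower genes than all genes had. BET1, a SNARE of ER-to-Golgi transport, read 8.85 and 5.65, while SAR1A, the GTPase that starts COPII coats, read 9.22 and 10.28.

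The targets of ATF4 separated the responses to compound C in 2DG and in normal growth. In normal growth, 22 of 31 were higher by 2-fold or more with compound C and 0 were lower, beside 3.88% and 2.70% of all genes. Their median there was 1.33. Against control, 2DG alone had 19 of the 31 higher, with a median of 1.19, so that the 2 comparisons start from different levels. In 2DG, 11 of the 31 were lower (35.5%, beside 25.4% of all genes) and 3 higher (9.68%, near the 8.33% of all genes). Their median was −0.44, beside −0.23 over all genes, and 9 of the 11 were among the 22. Lower levels of these targets in 2DG were not particular to compound C. Against 2DG alone, their median was −1.665 with versipelostatin and −1.60 with phenformin in 2DG. INHBE, a subunit of activin, read 5.00 in control and 8.30 with compound C, but 7.94 in 2DG and 3.49 in 2DG with compound C. ASNS, asparagine synthetase, read 8.89 and 11.39 in normal growth, and 11.37 and 9.52 in 2DG. Compound C or 2DG alone thus gave nearly the same level of ASNS, and both together a level between control and either alone. VLDLR, a lipoprotein receptor, and SLC1A4, which imports alanine and serine, had the same signs, with 1.64 and 1.15 in normal growth and −2.22 and −2.54 in 2DG. INHBE and ASNS went the same ways with the other compounds. With versipelostatin they read 8.89 and 11.73 in normal growth, and 3.91 and 8.99 in 2DG. With phenformin they read 7.25 and 10.93 in normal growth, and 4.07 and 9.28 in 2DG.

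A few targets of ATF4 were higher in both settings. ATF3, a stress-induced transcription factor, read 5.13 in control and 7.59 with compound C, and 6.36 in 2DG and 9.88 with compound C. DDIT4, an inhibitor of mTORC1, went from 6.45 to 10.01 in normal growth and from 8.65 to 10.37 in 2DG, whereas it read 5.19 with versipelostatin and 5.54 with phenformin in 2DG. SESN2, which restrains mTORC1 when leucine is short, differed by 1.16 and 1.20. Among the 3 compounds in 2DG, compound C was the one under which DDIT4 lay above the level in 2DG alone.

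**Figure D2:**
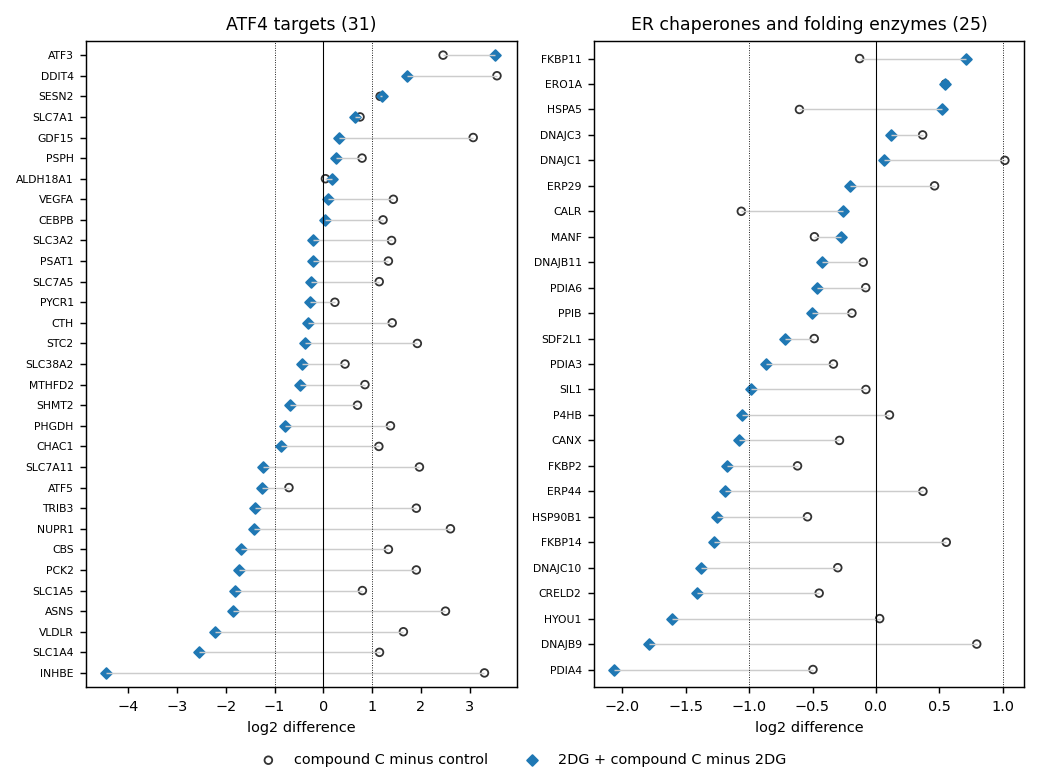
Log2 difference made by compound C (x axis) in normal growth (open circles) and in 2DG (filled diamonds) for each measured ATF4 target (left) and ER chaperone or folding enzyme (right), ordered by the value in 2DG, 1 array a condition. On the left most circles lie right of the dotted 2-fold line and most diamonds left of 0. On the right the circles lie near 0 and the diamonds reach −2.06.

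The amino acid response element (CARE), through which ATF4 binds its targets, was searched as TGATGNAA on both strands and was found in 3.67% of all promoters, and in 5 of 24 ATF4 targets with a promoter in the table. These were ASNS, CHAC1, ATF3, SLC3A2 and SLC7A1, whose differences in 2DG were −1.85, −0.87, 3.52, −0.20 and 0.65. ASNS and ATF3 are shown since their windows match the same letters, marked in capitals, and they stood at opposite ends in 2DG. Whether ATF4 binds at either match was not tested.
ASNS (chr7:97872359-97872658, minus strand): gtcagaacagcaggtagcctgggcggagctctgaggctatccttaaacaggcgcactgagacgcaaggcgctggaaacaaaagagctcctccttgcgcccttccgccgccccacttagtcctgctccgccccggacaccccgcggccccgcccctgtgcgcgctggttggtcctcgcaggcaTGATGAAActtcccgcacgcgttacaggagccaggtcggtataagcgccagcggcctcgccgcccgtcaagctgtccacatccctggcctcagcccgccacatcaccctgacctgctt
ATF3 (chr1:212565157-212565456, plus strand): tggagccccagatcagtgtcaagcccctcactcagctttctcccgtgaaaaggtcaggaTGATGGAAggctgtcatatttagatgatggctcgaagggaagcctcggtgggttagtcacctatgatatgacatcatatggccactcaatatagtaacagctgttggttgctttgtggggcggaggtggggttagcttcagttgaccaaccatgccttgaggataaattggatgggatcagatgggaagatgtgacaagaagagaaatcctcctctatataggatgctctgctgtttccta

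Around the ATF4 program, 6 of 15 amino acid transporters were lower with compound C in 2DG (40%, beside 25.4% of all genes). Only 1 was higher (6.67%, near the 8.33% of all genes). SLC38A9, which senses arginine at the lysosome, read 7.99 and 4.35. SLC1A3, a glutamate carrier, was the one higher, from 6.04 to 7.57, and compound C in normal growth took it from 5.56 to 4.45. Of 17 tRNA synthetases, 4 were lower (23.5%, under the 25.4% of all genes) and none higher, with AARS1, the alanine enzyme, at 9.98 and 7.64.

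The immediate early genes ARC, FOS and EGR1 held the 3 largest positive differences. Immediate early genes are transcribed without new protein synthesis after growth factor or stress signals. Among the 25 largest positive differences were also genes outside the lists. DCAF4L1 (at least 4.83), ALDH8A1 (at least 4.41) and CLEC4A (at least 4.01) were at background on the 7 other arrays and passed the limit only through this array. Of 22 immediate early genes outside the FOS and JUN family, 12 were higher with compound C in 2DG and 1 was lower. The 12 are 54.5%, beside 8.33% of all genes. Their list had a median of 1.09, or 0.05 under poly-A scaling, beside 0.65 with versipelostatin and 1.15 with phenformin in 2DG. In normal growth 7 were higher, where 3.88% of all genes were, and none was lower. ARC, a cytoskeleton-associated immediate early protein, read between 2.56 and 3.04 on the 7 other arrays and 10.75 in 2DG with compound C, at least 7.62 above 2DG. It passed the limit of 6 only through that array. EGR1, a zinc finger transcription factor, read 3.38 in control, 6.32 with compound C, 6.04 in 2DG and 11.92 in 2DG with compound C. Versipelostatin and phenformin in 2DG also gave high levels of EGR1, 10.36 and 11.34, but ARC stayed at background with them. GADD45B, a stress sensor that binds MAP kinase kinases, went from 6.96 to 12.40, and GADD45A, its relative in the DNA damage response, from 9.92 to 12.49. GADD45A read higher still with versipelostatin (12.70) and phenformin (13.01) in 2DG. For GADD45B the 4 probe sets differed by between 2.88 and 5.44.

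Of 11 genes of the FOS and JUN family, 6 were higher (54.5%, beside 8.33% of all genes) and 1 was lower. Their median was 1.29, beside 1.14 with versipelostatin and 0.58 with phenformin in 2DG. FOS, a subunit of the AP-1 transcription factor, was near or at background on the 4 arrays of normal growth and in 2DG, between 2.98 and 3.84, and read 10.04 in 2DG with compound C, at least 6.91 above 2DG. With versipelostatin and phenformin in 2DG it read 5.70 and 4.38. It passed the limit of 6 only through the array of 2DG with compound C. JUNB, one of its partners, read 6.17 and 8.11, and MAFF, a small MAF protein, 8.14 and 9.68. MAFF read 10.57 with versipelostatin and 10.87 with phenformin in 2DG. FOSL2, a FOS relative, differed by 1.48 on its brightest probe set and by as low as −2.42 on another, so that its direction depends on the probe set.

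The CArG box, the site of serum response factor, which drives many immediate early genes, has CC, 6 bases of A or T, and GG. It occurred in 1.29% of all promoters in the table. Of the 22 genes outside the FOS and JUN family, 14 had a promoter there, and it occurred in EGR1 and SRF. SRF differed by 0.01. The promoter of EGR1 is shown for its 2 matches within the window, in capitals.
EGR1 (chr5:138465229-138465528, plus strand): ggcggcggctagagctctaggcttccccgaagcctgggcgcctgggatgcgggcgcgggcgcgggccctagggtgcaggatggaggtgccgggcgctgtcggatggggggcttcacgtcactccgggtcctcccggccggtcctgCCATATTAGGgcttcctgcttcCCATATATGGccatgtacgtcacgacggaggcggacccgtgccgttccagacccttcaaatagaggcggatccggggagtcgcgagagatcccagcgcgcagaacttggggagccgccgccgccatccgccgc

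**Figure D3:**
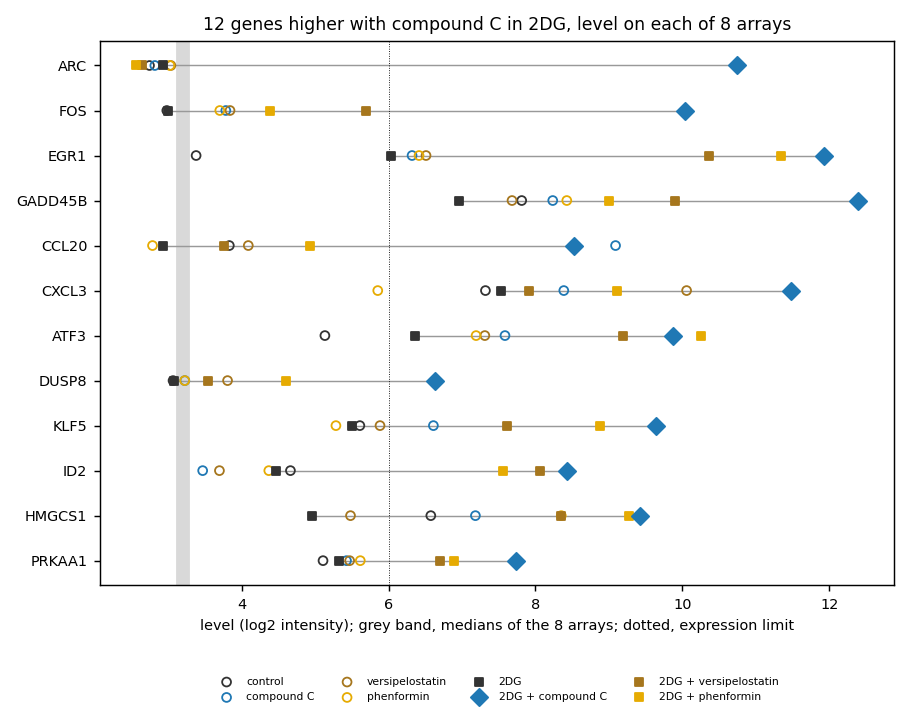
Level (log2 intensity, x axis) of 12 genes on each of the 8 arrays, with open circles for normal growth, filled squares for 2DG and a large diamond for 2DG with compound C, and a line from 2DG to 2DG with compound C. The diamond is the rightmost mark except for CCL20, where compound C in normal growth is higher, and ATF3, where phenformin in 2DG is higher.

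Genes that hold back MAP kinase signalling differed in both directions. Of 16 ERK feedback genes, 7 were higher (43.8%, beside 8.33% of all genes) and 2 lower (12.5%, beside 25.4%). Their median of 0.43 turns to −0.61 under poly-A scaling. DUSP8, a phosphatase of JNK and p38, read 3.08 in 2DG and 6.63 with compound C, at least 3.51 higher. Its highest level on the other arrays was 4.60, so that it passed the limit of 6 only through the array of 2DG with compound C. SPRY2, an inhibitor of receptor tyrosine kinase signals, read 8.69 and 11.10, and DUSP10, another phosphatase of JNK and p38, 7.15 and 9.40. With versipelostatin and phenformin in 2DG, SPRY2 read higher still, at 11.71 and 12.01. DUSP4, a nuclear phosphatase of ERK and JNK, went the other way, from 7.40 to 4.80, and from 6.19 to 7.22 in normal growth. Among 13 KLF and SP factors, 4 were higher (30.8%, beside 8.33% of all genes) and 4 lower (30.8%, beside 25.4%). KLF5 went from 5.50 to 9.64 and KLF6 from 9.73 to 12.56. SP1, a general activator of GC-rich promoters, went from 8.44 to 5.63 and SP2 from 6.55 to 3.68.

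Inflammatory genes were also divided. Of 10 cytokines and chemokines, 4 were higher (40%, beside 8.33% of all genes) and 3 lower (30%, beside 25.4%). CCL20, a chemokine for CCR6-bearing cells, read 2.93 in 2DG and 8.52 with compound C, at least 5.40 higher, and in normal growth it read 3.83 and 9.09. CXCL3, a neutrophil chemokine, read 7.54 and 11.48. IL1A and IL1B, the interleukin-1 genes, were lower, from 6.13 to 3.77 and from 10.08 to 8.52, and IL1B went from 10.40 to 12.21 in normal growth. Of 10 genes of the NF-kappaB circuit, 5 were higher (50%, beside 8.33% of all genes) and 1 lower (10%, beside 25.4%). Their median was 0.87, or −0.17 under poly-A scaling and 0.07 with its paired probe sets. They included TNFAIP3, which ends the signal, with 3.84 and 6.18, and NFKB1, a subunit of the factor, with 8.05 and 9.83. REL, also among the 5, read 6.60 with compound C in 2DG and at most 4.93 on the 7 other arrays. It passed the limit of 6 only through that array. In normal growth none of the 10 differed by 2-fold, where 6.58% of all genes did.

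Of the 25 genes with the lowest differences, 19 went under the background of the array. The other 6 stayed above the 3.24 of that array, with FIGNL1 at 3.51, ITPRIPL2 at 3.58, INHBE at 3.49 and RANBP6 at 3.42 closer to it than SLC26A2 and AMIGO2. SLC33A1, which carries acetyl-CoA into the ER lumen, read between 8.16 and 8.78 in normal growth, 9.51 in 2DG and 2.70 in 2DG with compound C, a difference of −6.28 or lower. Its 3 probe sets differed by between −6.81 and −3.09. ZBED5, a protein derived from a transposon, read 8.02 and 2.27, and TRIM32, a ubiquitin ligase, 8.17 and 2.76. FZD2, a receptor for WNT ligands, read 8.09 and 2.98, and IRS1, the adaptor of the insulin receptor, 7.60 and 2.52. For each of these the arrays of versipelostatin and phenformin in 2DG lay between, SLC33A1 at 6.11 and 5.56 and IRS1 at 5.55 and 5.02.

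AMIGO2, an adhesion protein of the cell surface, behaved otherwise. It read between 10.30 and 11.36 on the 7 other arrays, versipelostatin and phenformin in 2DG included, and 6.15 in 2DG with compound C, a difference of −4.82. SLC26A2, a sulfate transporter, was similar in that its lowest level on the other arrays was 7.26 and its level in 2DG with compound C was 4.01. CKMT2-AS1, a long non-coding RNA, was at background under each of the 3 compounds in 2DG, with 2.36, 2.55 and 2.22, and read 6.23 or more on the other 5 arrays.

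**Figure D4:**
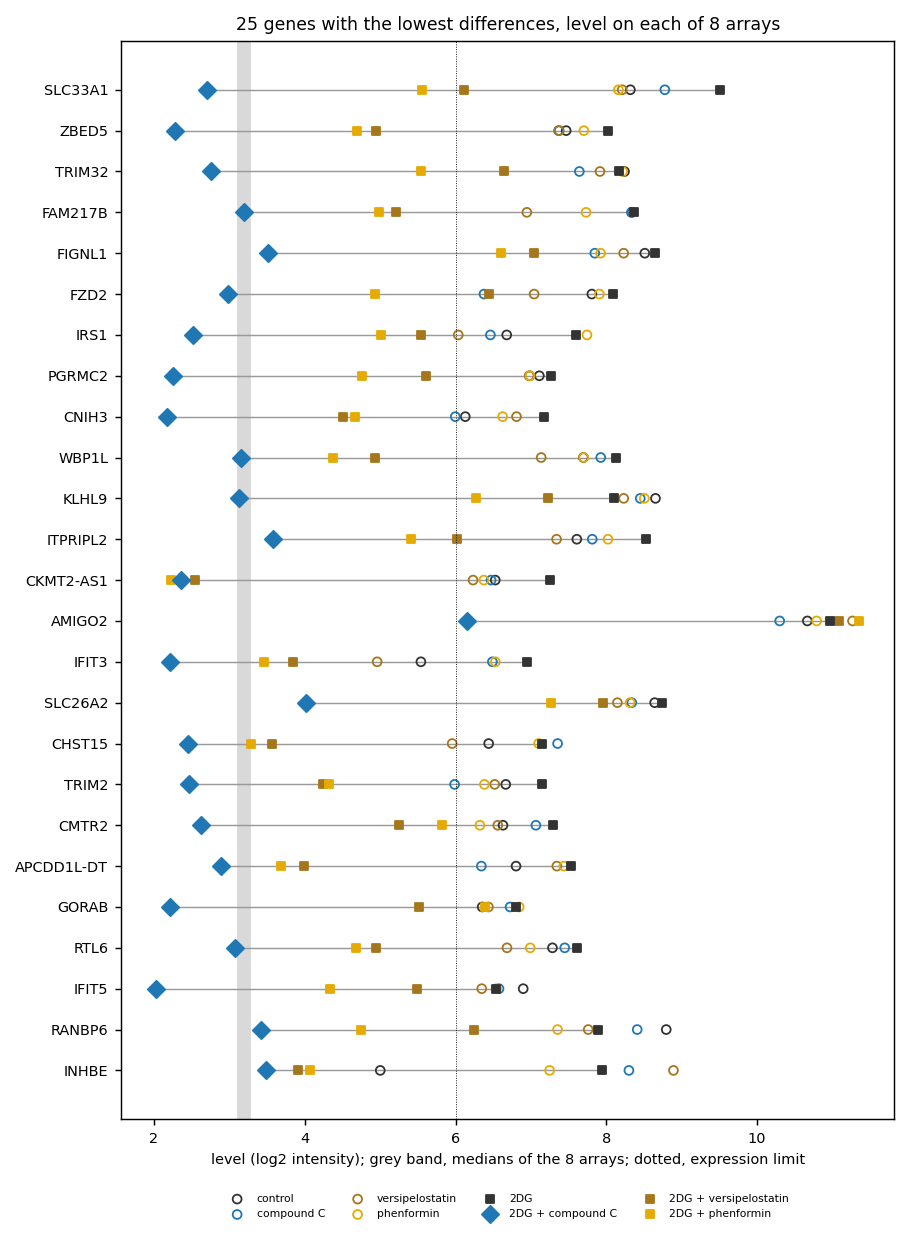
Level (log2 intensity, x axis) of the 25 genes with the lowest differences on each of the 8 arrays, with open circles for normal growth, filled squares for 2DG and a large diamond for 2DG with compound C. Most diamonds lie in or left of the grey band of array medians. AMIGO2 stands apart at 6.15, with its 7 other levels above 10.

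Interferon-induced genes had the lowest median of the 42 lists, −1.71 over the 9 measured. Of these, 5 were lower (55.6%, beside 25.4% of all genes) and none was higher. With an expression limit of 7 the median was −0.11, since most of the 9 are dim. IFIT3 and IFIT5, which bind viral RNA or its complexes, read 6.95 and 6.54 in 2DG and 2.21 and 2.03 with compound C. IRF9, a subunit of the factor that switches these genes on, read 6.65 and 3.66, and IRF1, another activator, 6.23 and 4.52. ISG15, a ubiquitin-like modifier, read 7.86 and 8.82, a difference of 0.95 that becomes −0.08 under poly-A scaling and 0.15 with the paired probe sets. None of the 9 differed by 2-fold with compound C in normal growth, where 6.58% of all genes did.

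Transcripts of the known targets of compound C and of their pathways differed as well. PRKAA1, which encodes a catalytic subunit of AMPK, read 5.33 in 2DG and 7.74 with compound C, and lay between 5.11 and 5.62 in normal growth. With versipelostatin and phenformin in 2DG it read 6.70 and 6.90, also above 2DG alone. STK11, which encodes LKB1, the kinase that activates AMPK, read 6.50 and 5.09, and 5.05 with versipelostatin and 4.73 with phenformin in 2DG. The directions of PRKAA1 and STK11 were thus not particular to compound C. RPTOR, the scaffold of mTORC1, read 6.15 and 4.32, whereas TSC1, which restrains that complex, read 6.80 and 7.90. In the BMP and TGF-beta pathways, 10 of 24 genes were lower (41.7%, beside 25.4% of all genes) and 4 higher (16.7%, beside 8.33%). Their median was −0.65, beside 0.01 in normal growth. SMAD1, the factor that BMP receptors phosphorylate, read 8.43 and 5.79, a difference of −2.64, with −2.47 on its other probe set. TGFBR1, a type I receptor for TGF-beta, read 8.40 and 5.91, and SKIL, a repressor of SMAD factors, 7.45 and 4.24 on its brighter probe set, where the other differed by −0.07.

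Direct targets and inhibitors of BMP differed in both directions. ID2, a classical target, was lower with compound C in normal growth, 4.66 in control and 3.47 with compound C, and higher in 2DG, 4.47 and 8.43. BAMBI, a decoy receptor, read 4.94 and 7.63 in 2DG. Both were also above 2DG alone with versipelostatin and phenformin in 2DG, ID2 at 8.06 and 7.55 and BAMBI at 7.58 and 6.62. NOG, which encodes the antagonist noggin, read 6.49 in 2DG and 2.81 with compound C, a difference of −3.26 or lower, and it read 9.10 with versipelostatin and 8.73 with phenformin in 2DG. Among the 3 compounds in 2DG, compound C alone took NOG below its level in 2DG.

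In metabolism, 4 of 19 genes of cholesterol synthesis and uptake were higher (21.1%, beside 8.33% of all genes) and 1 lower (5.26%, beside 25.4%). Their median was 0.62, or −0.42 under poly-A scaling. HMGCS1, which makes the substrate of HMG-CoA reductase, read 6.58 in control, 4.95 in 2DG and 9.42 in 2DG with compound C, and its probe sets differed by 1.48 and 4.47. INSIG1 and INSIG2, which hold the SREBP factors in the ER, went opposite ways, from 7.40 to 8.48 and from 6.48 to 3.82. Of 25 genes of glycolysis and glucose uptake, 2 were higher (8%, near the 8.33% of all genes) and 1 lower (4%, beside 25.4%). ALDOC, an aldolase, read 6.08 and 8.17, SLC2A3, the glucose carrier GLUT3, 8.25 and 9.47, and PFKFB4, a regulator of glycolytic flux, 7.51 and 5.13. SLC2A3 read 6.18 with versipelostatin and 6.96 with phenformin in 2DG, both below 2DG alone.

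ARRDC4, an arrestin relative that limits glucose uptake, read 4.85 in 2DG and 7.68 with compound C, while TXNIP, which does the same, stayed at 8.79 and 9.06. MLX, the partner of the Mondo factors that drive both, read 8.26 and 6.67. HMOX1, haem oxygenase, read 6.51 and 8.79, but GCLC, which limits glutathione synthesis, read 8.65 and 7.11, and KEAP1, the repressor of NRF2, 8.04 and 5.94. In the list of iron uptake and storage, 5 of 9 were lower (55.6%, beside 25.4% of all genes) and 2 higher (22.2%, beside 8.33%). Their median of −1.16 becomes 0.50 without probe sets that can match several transcripts. SLC11A2, the iron carrier DMT1, read 6.31 and 3.51. WIPI1, which marks forming autophagosomes, read 8.20 in 2DG and 4.99 with compound C, and 5.88 and 7.31 in normal growth.

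Of 38 mitosis genes, 16 were lower with compound C in 2DG (42.1%, beside 25.4% of all genes) and 1 was higher, with a median of −0.73. In normal growth their median was −0.54, with 5 lower, where 2.70% of all genes were. KIF11, the motor that separates spindle poles, read 8.44 in control, 6.88 in 2DG and 3.48 in 2DG with compound C, but 7.91 and 7.72 with versipelostatin and phenformin in 2DG. BUB1B and TTK, kinases of the spindle checkpoint, read 9.05 and 7.11 in 2DG and 6.90 and 4.77 with compound C. Of 43 DNA replication genes, 11 were lower (25.6%) and 3 higher (6.98%), shares near those of all genes, at a median of 0.01. PCNA, the sliding clamp, read 10.18 and 8.24 and POLD3, a polymerase subunit, 6.94 and 3.39. CDKN1B, the inhibitor p27, read 7.57 and 4.53, and CDKN2D, the inhibitor p19, 4.66 and 6.84.

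Replication-dependent histones, which package new DNA, had no member lower. Of 8 measured, 4 were higher (50%, beside 8.33% of all genes). The median of the list was 0.95, or −0.09 under poly-A scaling and 0.15 with its paired probe sets. Against 2DG alone it was 1.35 with versipelostatin and 0.51 with phenformin in 2DG. H2AC8 read 3.12 and 6.85, at least 3.73 higher, and H2BC5 6.87 and 8.29, though its other probe set differed by 0.27. Transcripts of these genes normally lack poly-A tails, and several of the probes may read related copies.

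Regulators of cell death differed in both directions, with 7 of 19 lower (36.8%, beside 25.4% of all genes) and 4 higher (21.1%, beside 8.33%). The BH3-only genes PMAIP1 and BCL2L11, whose products NOXA and BIM promote death, read 9.04 and 5.78 in 2DG and 11.12 and 7.96 with compound C. BCL2A1, which opposes death, read 7.61 and 9.48. XIAP, an inhibitor of caspases, read 7.79 and 6.02, FADD, the adaptor of death receptors, 8.43 and 5.54, and BCL2L1, which encodes BCL-XL, 7.80 and 6.05, with −0.20 on its other probe set. Among p53 targets 7 of 21 were lower (33.3%, beside 25.4% of all genes) and 3 higher (14.3%, beside 8.33%). TP53INP1, a stress-induced regulator of autophagy and death, went from 6.78 to 3.16. TP53INP1 was lower under all 3 compounds in 2DG, at 3.06 with versipelostatin and 2.59 with phenformin.

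Genes of RNA synthesis and splicing held members in both directions. Of 33 SR proteins, hnRNPs and their kinases, 10 were higher (30.3%, beside 8.33% of all genes) and 4 lower (12.1%, beside 25.4%). SRSF6, a splicing regulator, read 8.18 and 9.96, and HNRNPA1, an RNA-binding protein of splice site choice, 11.02 and 12.77. TRA2A, a splicing activator, read 7.77 and 9.39 in 2DG, while compound C in normal growth took it from 8.22 to 5.76. HNRNPA0, which binds AU-rich RNA, went from 10.18 to 6.83 on its brightest probe set, where another differed by 0.40. Of 33 genes of RNA polymerase II elongation and Mediator, 8 were higher (24.2%, beside 8.33% of all genes). Among them were ELL2, an elongation factor, with 7.87 and 10.35, and BRD2, a reader of acetylated histones, with 8.60 and 10.61. The 6 lower were 18.2%, under the 25.4% of all genes. They included MEPCE, which caps the 7SK RNA that restrains the elongation factor P-TEFb, with 8.33 and 4.90. LARP7 and HEXIM1, the other proteins of that complex in the list, differed by −1.59 and −1.40, and were chosen for mention after their values were seen.

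Several groups, abundant transcripts among them, differed little beside all genes, of which 25.4% were lower and 8.33% higher. Among genes at 11 or more on the control array these shares were only 4.63% and 1.29%. Few differences in a list of abundant transcripts are therefore not a trait of that list. None of 50 cytosolic ribosomal protein genes differed by 2-fold, with a median of 0.02 and a range of −0.22 to 0.67. Of 35 subunits of oxidative phosphorylation, 2 were lower (5.71%) and none was higher. Of 35 proteasome subunits, 1 was lower and 1 higher (2.86% each). Cytosolic heat shock proteins had 1 of 20 higher (5%), DNAJB6, with 8.40 and 9.66. Translation factors had 2 of 40 lower (5%). Of these, EIF2S2, a subunit of eIF2, differed by −1.09 on its brighter probe set and by 0.61 on the other. Among 185 ZNF genes, most of them zinc finger repressors, 69 were lower (37.3%, beside 25.4% of all genes) and 25 higher (13.5%, beside 8.33%). Among 186 long non-coding RNAs, 55 were lower (29.6%) and 24 higher (12.9%).

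**Figure D5:**
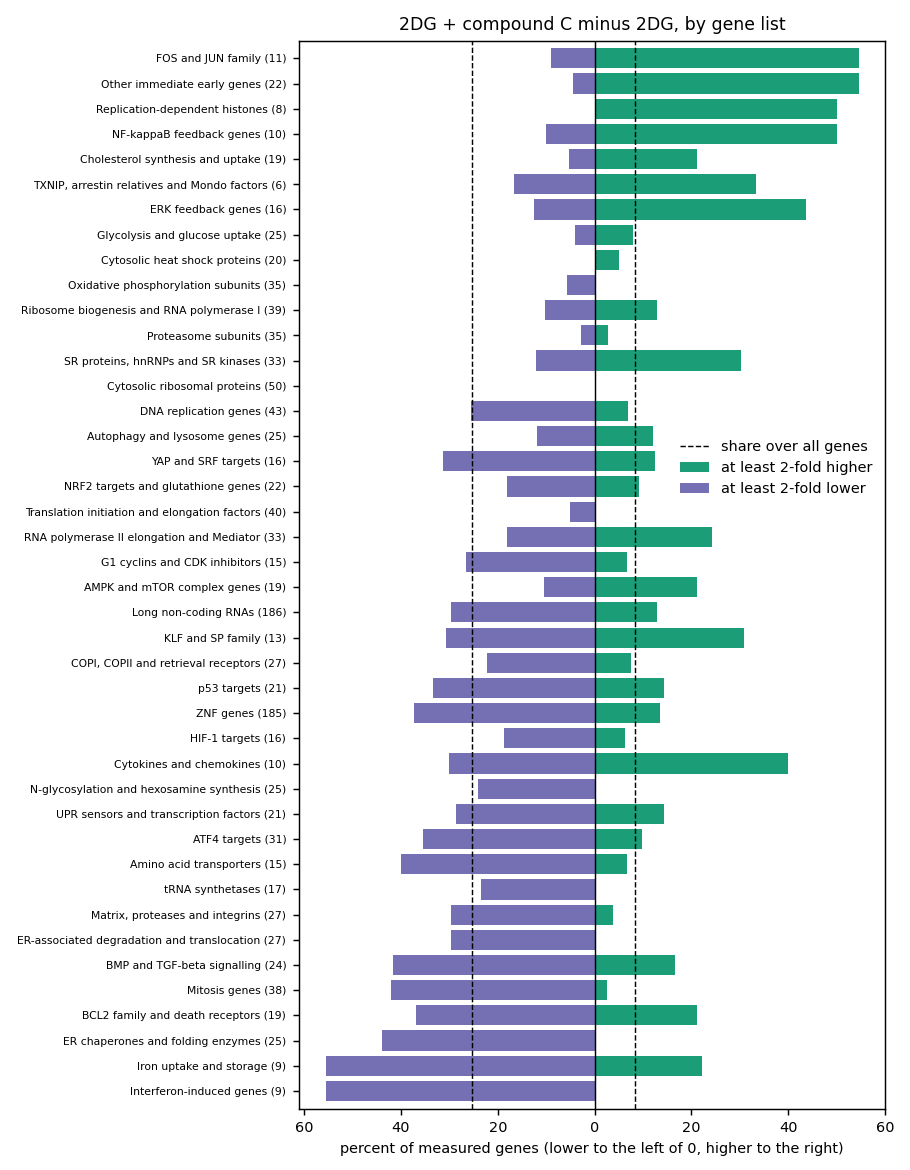
Percent of the measured genes of each of 42 lists (number in brackets) that were at least 2-fold lower (bars to the left of 0) or higher (bars to the right) with compound C in 2DG, ordered by median difference. Dashed lines mark the shares over all genes, 25.4% and 8.33%. The FOS and JUN family and the other immediate early genes reach furthest right, and the interferon-induced and iron genes furthest left.

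The share of lower genes varied with their level. Among genes at 6 to 7 on the control array, 32.0% were lower by 2-fold or more with compound C in 2DG, and among those at 11 or more, 4.63%, with steps of 28.5%, 25.8%, 18.9% and 13.7% between. The 1127 genes under 6 on the control array did not continue these steps, with 27.2% lower and 17.6% higher. They are read only because they reached 6 on another array, for ARC and FOS that of 2DG with compound C. Their shares depend on this limit and cannot be set beside the steps. By the steps from 6 upward, a list of abundant transcripts is read against a smaller share than the 25.4% of all genes. By the span of the gene in the genome, 22.8% of the 1686 shortest genes (median 5.29 kb) and 28.2% of the 1685 longest (median 152 kb) were lower, with 26.3%, 21.9% and 27.8% in the 3 groups of equal size between, so that the share did not rise steadily.

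Probe sets of one gene did not always run together. Of 3492 genes with several expressed probe sets, 62 had one at least 2-fold higher and another at least 2-fold lower in 2DG, against 7 in normal growth. Of all probe sets read, 34.0% passed 2-fold either way in 2DG and 7.17% in normal growth. The 62 and the 7 are therefore not comparable as they stand. The examples that follow were chosen after their values were seen. DIDO1, a chromatin protein with several isoforms, differed by 2.47 on one probe set and by −2.87 on another. KLHL20, a substrate adaptor of ubiquitin ligases, read 3.19 and 7.42 on one probe set, and 6.64 and 5.53 on another. For GART, an enzyme of purine synthesis, one probe set went from 1.68, at background on all 7 other arrays, to 6.45, while the brightest differed by −0.86. Which transcript each of these probe sets reads is not given in the sources used here.

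CRE, the site TGACGTCA of CREB and its relatives, was in 5.21% of 576 higher genes with a promoter in the table, 2.83% of 1802 lower genes and 3.57% of 7077 expressed genes, beside 1.98% of all promoters. The AP-1 site TGANTCA, no copy of which can also be a full CRE, was in 5.21%, 5.49%, 4.39% and 7.76% in the same order. Among the ERK feedback genes a CRE was in the window of DUSP1 and DUSP8, which differed by 1.48 and 3.55, and in the FOS and JUN family in that of MAFF and JUND, which differed by 1.54 and −0.13. These matches describe the letters of the window and nothing about binding.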

How the data were processed

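HT1080 cells were profiled on 8 Affymetrix Human Genome U133 Plus 2.0 arrays, 1 a condition, with cRNA made from 100 ng of total RNA. The authors deposited log2 values made with RMA (per the labels), which corrects background, normalizes arrays and summarises probe sets. Which program ran RMA is not given in the sources used here. Probe intensities were not used.

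The log2 values were taken as they stand. From them 62 control probe sets were left out, a probe set was kept at 6 or more on at least 1 array, and differences between single arrays were taken, with 2-fold counted as higher or lower. Gene symbols came from the platform annotation, of which 41043 of 41097 with 1 symbol were updated by gene ID through RefSeq. Genes with several probe sets are given by that with the highest mean over the 8 arrays. Named genes were the 25 largest differences in each direction, up to 6 members of each of 42 lists with the largest differences and the genes the study names. The members and lists were chosen with earlier results of these data known. RefSeq promoters (GRCh38.p14) were matched by symbol. A self-test on simulated data recovered all the differences set in it. Alternatives were other expression limits, folds, scalings and rules for probe sets. Computations used pandas 2.3.3 and numpy 2.4.6 in Python 3.11.15, with figures from matplotlib 3.10.9.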

Additional observations from a re-analysis of the deposited data

Results flagged for a closer look

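Among the named genes, 19 were at least 2-fold different in opposite directions with compound C in 2DG and in normal growth. With 1 array a condition, the difference between the settings was not tested. Lower in 2DG and higher in normal growth were INHBE (−4.45 in 2DG and 3.30 in normal growth), ASNS (−1.85 and 2.50), DDIT3 (−2.07 and 2.10), SLC7A11, the cystine carrier (−1.23 and 1.97), SLC1A4 (−2.54 and 1.15), VLDLR (−2.22 and 1.64) and NDRG1, a hypoxia-induced gene (−1.46 and 1.44). The same directions were seen for WIPI1 (−3.21 and 1.43), SKIL (−3.21 and 1.41), NFE2L1 (−2.60 and 1.01), DUSP4 (−2.60 and 1.03), IL1B (−1.56 and 1.81), the Mediator kinase CDK19 (−2.32 and 1.60), ZNF407-AS1 (−4.05 and 1.25) and NPC1, a cholesterol carrier of the lysosome (−1.53 and 1.86), whose other probe set was 2.64 higher in 2DG. Higher in 2DG and lower in normal growth were ID2 (3.96 and −1.20), TRA2A (1.61 and −2.46), SLC1A3 (1.53 and −1.11) and MMP3, a matrix protease (1.29 and −1.22).

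Probe sets that stand outside the gene measurement also differed. The poly-A controls were 1.04 higher in 2DG with compound C than in 2DG by the array medians, and 0.12 higher with compound C in normal growth. By the median over their probe sets they were 0.80 and 0.10 higher. The control probe set for the middle of 28S ribosomal RNA read 9.91 in 2DG and 11.36 with compound C, 1.45 higher, and 9.32 and 10.46 in normal growth.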

How the results depend on the processing

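No paired analysis was possible because each condition has 1 array, and for the same reason no array could be left out. The counts of probe sets stayed within 1.5 times of 1709 higher and 3561 lower with limits of 5 and 7, centring and quantile normalization. They became 442 and 9019 under poly-A scaling, 580 and 7304 with its paired probe sets (chosen after seeing the data), 830 and 5698 under hybridization control scaling, 766 and 2019 at 3-fold, 955 and 2314 without probe sets ending in _x_at, _s_at or _a_at, and 702 and 2141 as genes, as the fewer probe sets or higher threshold require. The higher count became 2695 with no limit and 3124 at 1.5-fold. The correlation with normal growth lay between −0.03 and 0.08 under the alternatives. Of 244 named genes past 2-fold, 40 lost it under poly-A scaling, 34 with its paired probe sets, 22 under hybridization control scaling, 16 with the median over probe sets, 14 with centring, 5 with quantile normalization and 2 with a limit of 5 or none. With a limit of 7 it was 0 of the 213 left, and without the probe sets ending in _x_at, _s_at or _a_at 9 of the 193 left. Signs reversed for CCDC88C (−0.95, with a limit of 5 or none, where another probe set is brightest). Without the probe sets that can match several transcripts they reversed for iron genes (0.50), EIF2S2 (0.61), SPARC (1.68), SQSTM1 (0.79), SRSF10 (−0.26) and TMED10 (0.65), and with the median over probe sets for EGLN1 (1.14), NPC1 (0.56), SLC6A6 (0.012) and SPARC (0.15). The interferon median was −0.11 with a limit of 7 and −2.35 without the probe sets that can match several transcripts. The cause was not tested for other changes.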
